A study of Mus musculus with 12 samples.

Results

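The genes described here are Myc and 39 genes of ribosome biogenesis, 40 genes out of 12,295 named genes tested. They were chosen by name, as nucleolar, snoRNP and RNA polymerase I genes together with Myc, and each was read from its brightest array probe. All 40 were named on the array and all passed the filter on dim probes, 38 of them with a signal well above background on all 12 arrays, and Wdr12 and Rrp1b on 11. RNA came from splenic B cells in 4 groups of 3 samples. Stimulated knockout cells carried the B1-8hi heavy chain knock-in, both floxed Sub1 alleles (Sub1 fl/fl) and Mb1-Cre, and had been cultured for 72 h with NP-ficoll, CD40 ligand and the cytokines IL-2, IL-4 and IL-5. Stimulated control cells carried B1-8hi and Sub1 fl/fl without Cre and had the same culture. Resting knockout and resting control cells had the same genotypes and no differentiation stimulus. No culture time is given for resting cells, so the stimulus and 72 h in culture cannot be told apart. Changes on stimulation below are differences between stimulated and resting cells. Sub1 encodes PC4, a coactivator that binds single-stranded DNA. Mb1-Cre is inserted in Cd79a, so Cre, its insertion and the loss of Sub1 cannot be told apart here. Since no label states that each replicate was its own animal, the p-values reflect sample spread that could be technical.

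MYC is a transcription factor that pairs with MAX and binds E-boxes, and it is known for driving growth in activated lymphocytes. Ribosome biogenesis starts when RNA polymerase I transcribes the ribosomal RNA precursor in the nucleolus. Box C/D and box H/ACA ribonucleoproteins (snoRNPs) then modify the precursor, and assembly factors cleave and fold it into the small and the large subunit.

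RefSeq promoter windows on the mouse GRCm38.p6 build, running from 250 bases before to 50 after a gene's start, were held for 34 of the 40 genes. The E-box CACGTG, which reads the same on both strands, was found in the windows of 8 of them (23.5%), namely Nop2, Grwd1, Pes1, Mybbp1a, Tsr1, Nle1, Rrn3 and Wdr43. Over all 27,025 genes of the table the share was 8.09%. Stretches of 4 windows are shown, on the plus strand, with the E-box in capitals. Wdr43 and Pes1 are shown for their changes in expression. Nop2 and Rrn3 are shown because their E-boxes lie before the start. They come from Wdr43 (chr17:71616095-71616242), Pes1 (chr11:3963855-3963987), Nop2 (chr6:125131763-125131882) and Rrn3 (chr16:13780469-13780668).
Wdr43: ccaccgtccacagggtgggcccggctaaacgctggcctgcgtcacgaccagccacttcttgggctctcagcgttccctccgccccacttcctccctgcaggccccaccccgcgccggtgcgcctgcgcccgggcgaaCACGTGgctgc
Pes1: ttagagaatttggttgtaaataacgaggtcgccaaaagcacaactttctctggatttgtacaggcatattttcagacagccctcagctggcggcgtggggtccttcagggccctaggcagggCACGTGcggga
Nop2: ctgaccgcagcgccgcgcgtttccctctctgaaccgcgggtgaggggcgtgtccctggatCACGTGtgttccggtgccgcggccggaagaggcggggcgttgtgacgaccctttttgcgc
Rrn3: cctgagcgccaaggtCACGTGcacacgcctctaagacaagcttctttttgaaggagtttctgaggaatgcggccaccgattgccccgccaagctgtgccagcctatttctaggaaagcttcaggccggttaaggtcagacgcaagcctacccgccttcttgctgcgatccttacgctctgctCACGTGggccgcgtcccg
The first base of the E-box stands at position -60 from the start in Nop2, 18 in Wdr43 and 3 in Pes1, and Rrn3 holds 2 copies, both before the start. These letters are a description of the windows and not a measurement of MYC binding.

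Levels are log2 processed Cy3 intensities relative to the 75th percentile of each array. Outside the sums of cell type markers, where bright probes weigh most, no probe's level is set against another's. Arrays differed in signal. Between 24.3% of spots (stimulated control replicate 2) and 76.8% (stimulated knockout replicate 3) were well above background, none was saturated, and 12 arrays limit the precision. Sub1 fell by 1.21 on the log2 scale in stimulated knockout cells relative to their controls (SE 0.19, limma adjusted p = 0.0114). In resting cells its change was -0.38 (adjusted p = 0.268). Which exons are floxed is not labelled, and the probe may lie outside them. Cd79a, which carries the Cre insertion, fell by 1.10 in stimulated knockout cells (limma adjusted p = 0.0343).

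Myc was the first gene examined. In stimulated knockout cells its levels were 1.83, 1.21 and 1.75, against 3.01, 2.62 and 2.23 in stimulated control cells. The groups did not overlap, and the difference was -1.03 (SE 0.31, 95% interval -1.71 to -0.34), but it missed the threshold of 0.05 after adjustment over all features (limma adjusted p = 0.102). In resting knockout cells Myc stood at 1.74, 1.83 and 1.84, against 2.94, 2.51 and 1.80 in resting control cells. One resting control array lay within the range of the knockout arrays. The resting difference was -0.61 (SE 0.31, adjusted p = 0.275). Slide 1 alone gave -0.94 and slide 2 alone 0.05. Slide 1 held replicates 1 and 2 of every group and slide 2 held replicate 3. On the slides separately the stimulated difference was -1.30 and -0.48. Between stimulated and resting cells Myc changed by -0.21 in knockout cells (adjusted p = 0.757) and 0.21 in control cells (adjusted p = 0.712), with overlapping groups in both genotypes.

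**Figure D1:**
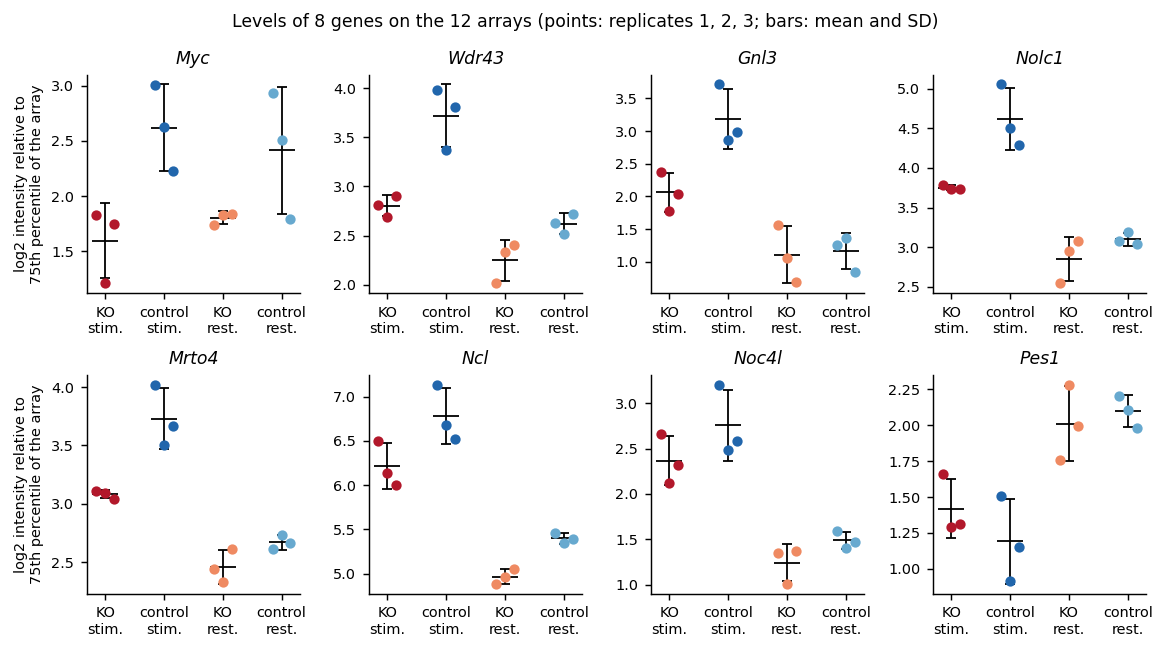
Level of 8 genes on each array, as log2 intensity relative to the array's 75th percentile on the vertical axis, for stimulated knockout (KO stim.), stimulated control, resting knockout and resting control cells. Points are the 3 replicates, and bars give the mean and SD. Stimulated knockout cells lie below stimulated control cells without overlap for Myc, Wdr43, Gnl3, Nolc1, Mrto4 and Ncl, and Pes1 lies lower in stimulated than in resting cells of both genotypes.

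The study's design text names the function of PC4 in B cells as its subject, and the genotypes were compared first in stimulated cells. Of the 40 genes, 1 was lower in knockout cells and none was higher, where 3.46% of all features tested passed the threshold (2.26% lower and 1.21% higher). One of 40 is 2.5%, close to that background, and is not a result about these genes as a group. At an unadjusted p under 0.05 there were 18 of the 40 (45%), all with a negative change, where 22.1% of all features had such a p and 11.9% had one with a negative change. The median change of the 40 genes was -0.48, against -0.02 over all features, and 38 of 40 changes were negative, where 51% of all features were negative. Groups did not overlap for 16 of the 40, all lower in knockout cells, where 14.1% of all features were lower without overlap. That share includes dim features, and the share over features well above background on all 12 arrays is not given. Bright features behaved differently from dim ones here. Over the 10,275 features well above background on all 12 arrays, the median change was -0.31 and 82.8% were negative, against a median of -0.50 and 36 negative among the 38 genes measured there.

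Fitting those 10,275 features alone gave 7 genes lower in stimulated knockout cells of 38 tested (18.4%), where 13.4% of features were lower. They were Wdr43, Nolc1, Gnl3, Mrto4, Myc, Nop58 and Nop56. Myc then had an adjusted p of 0.0235 in limma's test, and Nop56 one of 0.0499. The call for Myc therefore depended on the filter on dim features.

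Wdr43, a factor of the small subunit that acts early on the precursor, was the gene that passed. Its levels were 2.81, 2.69 and 2.91 in stimulated knockout cells, against 3.98, 3.37 and 3.81 in stimulated control cells. All knockout arrays lay below all control arrays, with a change of -0.92 (SE 0.20, limma adjusted p = 0.0361) that was -0.92 on slide 1 and -0.90 on slide 2. A second, dimmer Wdr43 probe gave -0.35. Wdr43 passed the threshold in 8 of 24 other settings and kept its sign in all 24, with adjusted p between 0.00444 and 0.293. When 1 of the 12 arrays was left out in turn, Wdr43 still passed without stimulated control replicate 2 (adjusted p = 0.0124) and without resting knockout replicate 1 (adjusted p = 0.0462), and missed the threshold in the other 10 cases. The median of the 40 genes was -0.28 without stimulated control replicate 1.

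Several genes just missed the threshold. Nolc1, a nucleolar chaperone of snoRNPs, stood at 3.79, 3.74 and 3.73 in stimulated knockout cells, against 5.05, 4.51 and 4.29 in stimulated control cells. Its groups did not overlap, with an SD of 0.033 in knockout and 0.39 in control arrays, and the change was -0.87 (SE 0.22, limma adjusted p = 0.0644). Its dimmer probe gave -0.25. Gnl3, or nucleostemin, a nucleolar GTPase of proliferating cells, had levels of 2.38, 1.78 and 2.04 in stimulated knockout cells, against 3.71, 2.87 and 2.98 in stimulated control cells. These groups did not overlap either, and the change of -1.12 (SE 0.30, adjusted p = 0.0745) had the largest size of the 40. With the replicate number as a block, Gnl3 was lower in knockout cells (limma adjusted p = 0.0224). The count was then 2 of 40, where 8.12% of all features passed in either direction, so it is not a result about these genes as a group. Mrto4, which helps build the stalk of the large subunit, stood at 3.11, 3.09 and 3.04 in stimulated knockout cells, against 4.02, 3.51 and 3.67 in stimulated control cells. Its arrays did not overlap, with a change of -0.65 (SE 0.18, adjusted p = 0.0799).

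By role, the box C/D snoRNP genes Nop56, Nop58, Fbl and Rrp9 had a median change of -0.55 in stimulated cells. For the box H/ACA genes Dkc1, Nhp2, Gar1 and Nop10, whose proteins make pseudouridine, it was -0.40. The 5 nucleolar multifunctional genes, among them Ncl (nucleolin) and Npm1 (nucleophosmin), had a median of -0.53, and the 11 other large subunit factors one of -0.53. For the 7 small subunit genes the median was -0.38. The 3 PeBoW genes of the large subunit, Pes1, Bop1 and Wdr12, stood near 0 at -0.06, between -0.64 and 0.23. Polymerase I genes (Polr1a, Polr1b, Polr1c, Ubtf and Rrn3) had a median of -0.31, and none passed. The 2 genes with positive changes were Pes1, with 0.23, and Rrp12, an export factor, with 0.14. Both had overlapping groups and intervals that span 0.

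**Figure D2:**
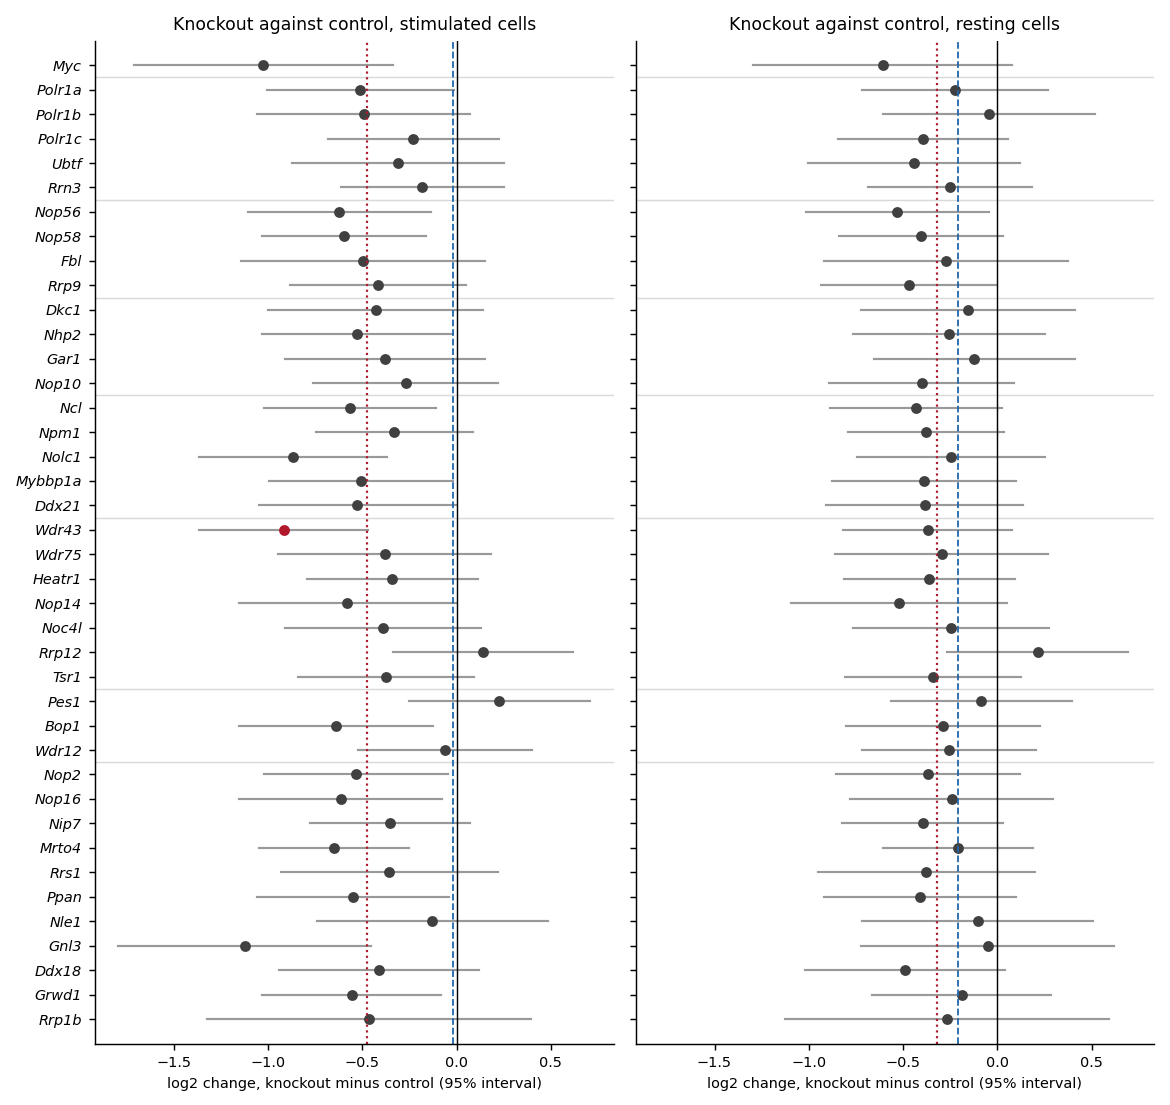
Change of each of the 40 genes between knockout and control, in stimulated cells on the left and resting cells on the right, on a horizontal log2 axis with 95% intervals, grouped by role down the page. The dotted line is the median of the 40 genes and the dashed line that of all features. Wdr43 in stimulated cells (red) passed the threshold, and 22 intervals in stimulated and 38 in resting cells span 0.

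In resting cells none of the 40 genes passed in limma's test, where 0.0131% of all features, 3 in number, did (0.0087% higher and 0.00435% lower). At an unadjusted p under 0.05 there were 2 of the 40 (5%), below the 19.7% of all features. The smallest p belonged to Nop56, a core protein of box C/D snoRNPs, with levels of 3.79, 4.10 and 4.47 in resting knockout cells, against 4.71, 4.55 and 4.71 in resting control cells. All 3 knockout arrays were lower, and the change was -0.53 (SE 0.22, limma adjusted p = 0.238). Next were Rrp9, a U3 snoRNP protein, with -0.47 (adjusted p = 0.253), and Ncl with -0.43 (adjusted p = 0.262). The 40 genes had a median change of -0.32, against -0.21 over all features, and 24 of them were lower without overlap (60%, against 27% of all features). Among features well above background on every array, however, the 2 medians were almost the same at -0.35 for 38 of the genes and -0.35 for all 10,275, and 45.9% of those features were lower without overlap. The sign of the median of the 40 depends on the scale. It was 0.035 when the percentile was taken over spots detected on all arrays, a scale that shifts every feature alike and put the all-feature median at 0.14, so the genes' median relative to all features was -0.11 on both scales.

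Genes of other cell types moved with genotype. Of 10 myeloid markers tested from a list of 13, 4 (Adgre1, C1qa, C1qb and C1qc) were higher in stimulated knockout cells. Over all features 1.21% were higher. C1qa, a complement gene of macrophages, was not well above background on any stimulated control array and was at least 3.85-fold higher in stimulated knockout cells (limma adjusted p = 0.00206), where the bound takes the dimmest well-measured signal of each control array as its level. The summed intensity of the 10, relative to the 75th percentile, was 28.7 to 36.8 in stimulated knockout cells, against 10.73 to 26.5 in stimulated control cells. Without S100a9 these sums overlapped, at 25.06 to 31.1 in stimulated knockout and 10.67 to 25.64 in stimulated control cells. In resting cells the myeloid sum was 86.2 to 140.3 in knockout, against 44.9 to 76.9 in control cells, and none of the 10 passed. Without S100a9 it was 70.8 to 96.5 in resting knockout, against 33.2 to 48.9 in resting control cells. For 5 of 8 NK markers the sum was 159 to 349 in stimulated knockout cells, against 28.7 to 29.8 in stimulated control cells, with Gzma and Nkg7 higher. Gzma, a granzyme, made up most of it, and without Gzma the sum was 12.6 to 22.6 in stimulated knockout cells, against 5.09 to 7.34 in stimulated control cells. Both sums include Ncr1 and Klrb1c, which passed the filter through stimulated knockout cells alone, so these sums are a description. For 8 of 10 T cell markers, of which Cd3g alone passed, the sum was 80.2 to 92.9 in stimulated knockout cells, against 55.4 to 68.7 in stimulated control cells. Thy1 made up 49.7 to 51.4 of it in knockout and 31.8 to 48.0 in control cells. Without Thy1 the T cell sum was 30.5 to 41.5 in stimulated knockout cells, against 20.4 to 23.6 in stimulated control cells. In resting cells the T cell sum was 13.2 to 24.5 in knockout, against 14.1 to 17.7 in control cells. Of 3 erythroid markers from a list of 7, the globin gene Hba-a1 alone passed. It was at least 9.87-fold higher in stimulated knockout cells (limma adjusted p = 0.0437), and none of 5 platelet markers passed. Without Hba-a1 the erythroid sum was 0.34 to 0.48 in stimulated knockout cells, within the 0.23 to 0.83 of stimulated control cells. In resting cells the erythroid sum was 38.8 to 158 in knockout, against 3.14 to 50.8 in control cells. Hba-a1 made up 36.7 to 150.2 of it in knockout and 2.82 to 49.3 in control cells. Without Hba-a1 it was 2.09 to 7.74 in resting knockout, against 0.32 to 1.98 in resting control cells. The resting platelet sum was 9.81 to 13.8 in knockout, against 5.30 to 11.8 in control cells. The 9 B cell markers, all tested, summed to 999 to 1235 in stimulated knockout cells, against 899.7 to 1334 in stimulated control cells, and none passed. In resting knockout cells the B cell markers summed to 1275 to 1505, against 1660 to 1972 in resting control cells. Their part in the results above was not tested, and in bulk RNA fewer cells of a type and less RNA per cell cannot be told apart.

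After 72 h of stimulation some of the genes were higher than in resting cells in both genotypes, and the count in knockout cells depended on single arrays. In knockout cells 10 of the 40 rose and none fell, where 10.9% of all features rose and 5.2% fell (16.1% either way). In control cells 17 rose and 1 fell, where 14.7% rose and 13.1% fell (27.8% either way). The share was 25% in knockout and 42.5% in control cells. Their median change was 0.43 in knockout cells, where all features had 0.10, and 0.53 in control cells, where all features had 0.04. Without stimulated control replicate 1 the control median was 0.32. The count in knockout cells was 4 without stimulated knockout replicate 1, resting knockout replicate 1 or resting knockout replicate 2, 5 without stimulated knockout replicate 2 and 6 without stimulated knockout replicate 3. Over features well above background on all arrays, 39.5% of 38 genes rose in knockout cells, against 28.5% of all features, and 50% rose in control cells, against 32.8%. All 10 genes that rose in knockout cells were among the 17 that rose in control cells, which is 100% of the knockout list and 58.8% of the control list.

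Markers of cell types moved with stimulation as well. Of the 9 B cell markers, 2 fell in knockout and 7 in control cells. Of the 10 myeloid markers 5 fell in knockout and 6 in control cells, of the 3 erythroid markers 3 fell in knockout and 1 in control cells, and of the 5 platelet markers 3 in each genotype. Among T cell markers 2 rose and 1 fell in knockout cells, and 2 rose and 2 fell in control cells. Thy1, a surface protein of T cells, changed by 5.07 in knockout and 5.70 in control cells. Other T cell markers did not follow it, and of the 8 changes 4 were negative in knockout and 5 in control cells. Cd3d changed by -0.21 in knockout and -1.15 in control cells, Cd3e by 0.08 and -0.20, and Cd3g by 0.10 and -1.26. None of Cd3d, Cd3e and Cd3g passed in either genotype. Cd8a changed by -1.35 in knockout and -1.69 in control cells. Gzma changed by 6.59 in knockout and 4.16 in control cells. Nkg7, a granule protein, also rose in knockout cells, by 1.56. The part of these markers in the stimulation results was not tested.

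Ncl, a nucleolar RNA-binding protein, gave the largest rise in knockout cells. Its levels were 6.502, 6.142 and 6.003 in stimulated knockout cells, against 4.89, 4.96 and 5.05 in resting knockout cells. In control cells they were 7.14, 6.68 and 6.53 when stimulated, against 5.46, 5.34 and 5.39 when resting. Stimulated and resting arrays were far apart in each genotype, with changes of 1.25 in knockout cells (SE 0.21, limma adjusted p = 0.00231) and 1.38 in control cells (SE 0.21, adjusted p = 0.000599). A second, dimmer Ncl probe, well above background on all 12 arrays, gave 0.37 in knockout and 0.29 in control cells. Noc4l, a small subunit factor, changed by 1.12 in knockout cells (SE 0.23, adjusted p = 0.00845) and by 1.27 in control cells (SE 0.23, adjusted p = 0.00225). Npm1, a nucleolar chaperone, rose by 1.00 in knockout cells (limma adjusted p = 0.00482) and by 0.95 in control cells (adjusted p = 0.00336). The 4 Npm1 probes gave 0.83 to 1.06 in knockout and 0.83 to 0.96 in control cells. Nhp2 rose by 0.95 in knockout and 1.22 in control cells. Ddx21, a nucleolar RNA helicase, rose by 0.92 in knockout and 1.06 in control cells, though its dimmer probe gave -0.02 in knockout and 0.10 in control cells. Wdr75, a small subunit factor, rose by 0.97 in knockout and 1.05 in control cells.

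Gnl3 in knockout cells had levels of 2.38, 1.78 and 2.04 when stimulated, against 1.57, 1.05 and 0.70 when resting, a change of 0.96 (SE 0.30, limma adjusted p = 0.0559) that just missed the threshold. In control cells its levels were 3.71, 2.87 and 2.98 when stimulated, against 1.25, 1.37 and 0.85 when resting. Neither pair of groups overlapped, and the control change of 2.03 (SE 0.30, adjusted p = 0.000592) was the largest rise of the 40 genes. Nolc1 rose by 0.89 in knockout cells (SE 0.22, adjusted p = 0.0207) and by 1.52 in control cells (SE 0.22, adjusted p = 0.000565), and its dimmer probe gave -0.39 in knockout and -0.15 in control cells. Wdr43 had a change of 0.55 in knockout cells (adjusted p = 0.0988) and rose by 1.10 in control cells (SE 0.20, adjusted p = 0.00225), with 0.16 in knockout and 0.03 in control cells on its dimmer probe. Fbl, the methylase of box C/D snoRNPs, changed by 0.53 in control cells (adjusted p = 0.224), and with the replicate number as a block it was called higher (adjusted p = 0.028).

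Pes1 went the other way. Its levels in stimulated knockout cells were 1.66, 1.29 and 1.31, against 1.76, 2.28 and 1.99 in resting knockout cells. In stimulated control cells they were 1.50, 0.92 and 1.15, against 2.20, 2.11 and 1.98 in resting control cells. Neither pair of groups overlapped, with a change of -0.59 in knockout cells (SE 0.22, limma adjusted p = 0.0975) and -0.91 in control cells (SE 0.22, adjusted p = 0.00976). A second, dimmer Pes1 probe, well above background on 8 of 12 arrays, gave 0.92 in knockout and 0.40 in control cells, so the direction for this gene rests on the probe used. Bop1, its PeBoW partner, rose by 0.79 in control cells (SE 0.23, adjusted p = 0.0262).

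**Figure D3:**
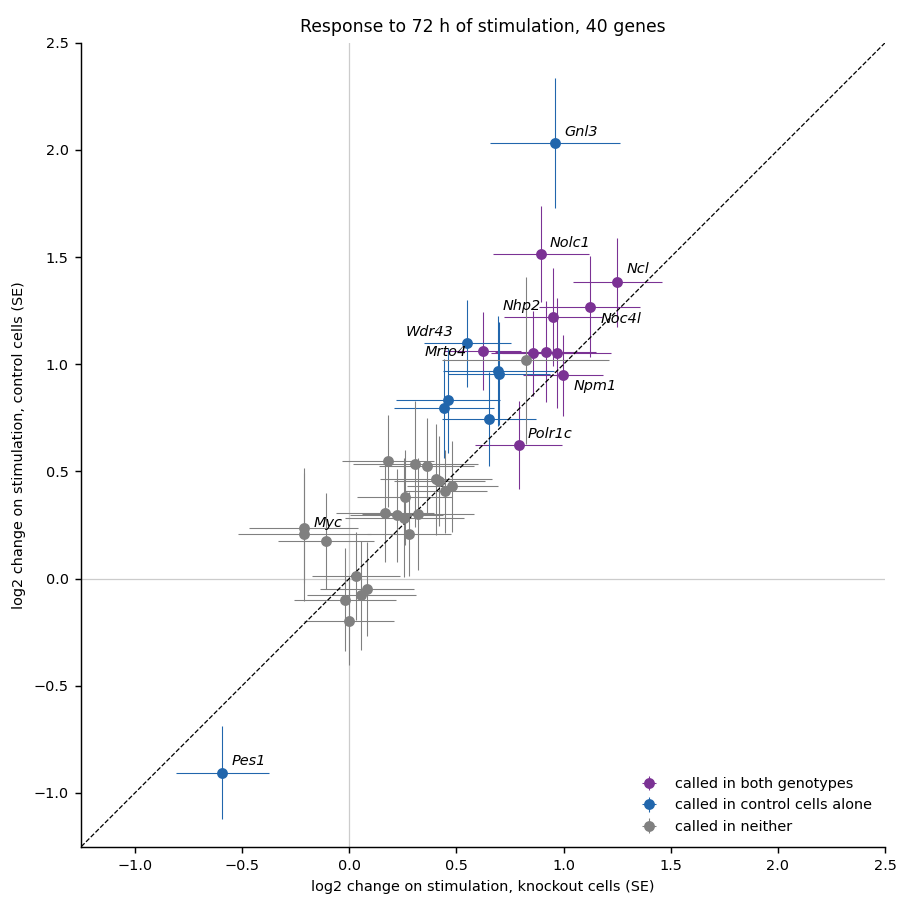
Change of each of the 40 genes on stimulation, log2 scale, in knockout cells on the horizontal axis and in control cells on the vertical axis, with standard errors as bars and the line of equal change dashed. Genes called in both genotypes (10) and in control cells alone (8, with Pes1 the one that fell) are marked. Gnl3 stands farthest above the line.

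Whether stimulation acted differently in the genotypes was tested by the interaction. None of the 40 passed in limma's test, where 0.144% of all features did (0.0522% higher and 0.0914% lower), and at an unadjusted p under 0.05, which 10.6% of all features had, there was 1, Gnl3, with -1.07 (SE 0.43, adjusted p = 0.397). It was followed by Nolc1 with -0.62 (SE 0.32, adjusted p = 0.542) and Wdr43 with -0.55 (SE 0.29, adjusted p = 0.557). The interaction of Myc was -0.42 (SE 0.44, adjusted p = 0.858). Of the 40 values 28 were negative (70%), against 43.3% of all features. The members' median was -0.14, against 0.08 over all features. Stimulated control replicate 1 decides the sign of the members' median, because without it the median was 0.0635. All features then had 0.1009, and 26 of the 40 lay below that.

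Of 94 other ribosome biogenesis factors, 84 were tested. None passed in either knockout comparison in limma's test, and 15 in stimulated cells (17.9%, against 22.1% of all features) and 6 in resting cells (7.14%, against 19.7%) had an unadjusted p under 0.05. Their median knockout change in stimulated cells was -0.36, with 77 of 84 negative, and in resting cells -0.35. Over all features the median was -0.02 in stimulated cells, with 51% negative, and -0.21 in resting cells. Over features well above background on every array it was -0.31 in stimulated cells, with 82.8% negative, and -0.35 in resting cells. Stimulation raised 8 in knockout cells (9.52%, against 10.9% of all features) and 16 in control cells (19%, against 14.7%), where 2 fell (2.38%, against 13.1%). These shares lie near or below the background and are not a result about the list. The called genes in control cells included Utp3, a small subunit processome factor, with 1.29, and Polr1d, a subunit shared by polymerases I and III, with 1.17. Noc3l, a large subunit factor, fell by 1.26 there, and Gtpbp4, a nucleolar GTPase, fell by 0.86, each well above background on 2 of 3 stimulated control arrays.

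Of the 11 partners and antagonists of MYC, 9 were tested. None passed in either knockout comparison in limma's test, and 3 in stimulated cells (33.3%, against 22.1% of all features) and 2 in resting cells (22.2%, against 19.7%) had an unadjusted p under 0.05. On stimulation of control cells 3 of the 9 fell (33.3%, against 13.1% of all features) and 2 rose (22.2%, against 14.7%). The antagonist Mnt fell by 0.75 and Max, its partner, fell by 0.72, and neither passed in knockout cells. Mga had the lowest change of the 9, at -0.98, and passed the filter through resting control cells alone. Mxd3, also a MAX partner, had levels of 1.44, 0.94 and 1.39 in stimulated control cells, against -3.07, -1.31 and -0.86 in resting control cells, where 2 of 3 arrays measured it. The groups did not overlap and Mxd3 was called higher (limma adjusted p = 0.00101), with the size of the change open to the array at background. Mycn, the paralog of Myc, was well above background on all 3 stimulated knockout arrays, at -0.35, -0.45 and -0.65, against 1 of 3 stimulated control arrays and none of the resting arrays of either genotype. It passed the filter through that group, so these levels are a description.

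The scale sets the sign of small values. With the percentile taken over spots detected on all arrays, the all-feature median was 0.39 for the knockout comparison in stimulated cells and -0.35 for stimulation in control cells. The genes' own median for the knockout comparison in stimulated cells became -0.073. Another percentile subtracts 1 constant from all features of an array, so by construction their median relative to all features stayed at -0.46. Under quantile normalization it was -0.11, or -0.20 relative to all features. Of all features called in stimulated cells, 34.8% were higher in knockout cells, against 84.2% under the detected-spot percentile and 57.1% under quantile normalization. For stimulation in knockout cells the share of higher calls was 67.7%, against 36.3% and 51.6% under the same alternatives, and for stimulation in control cells it was 52.9%, against 29.2% and 41.8%.

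**Figure D4:**
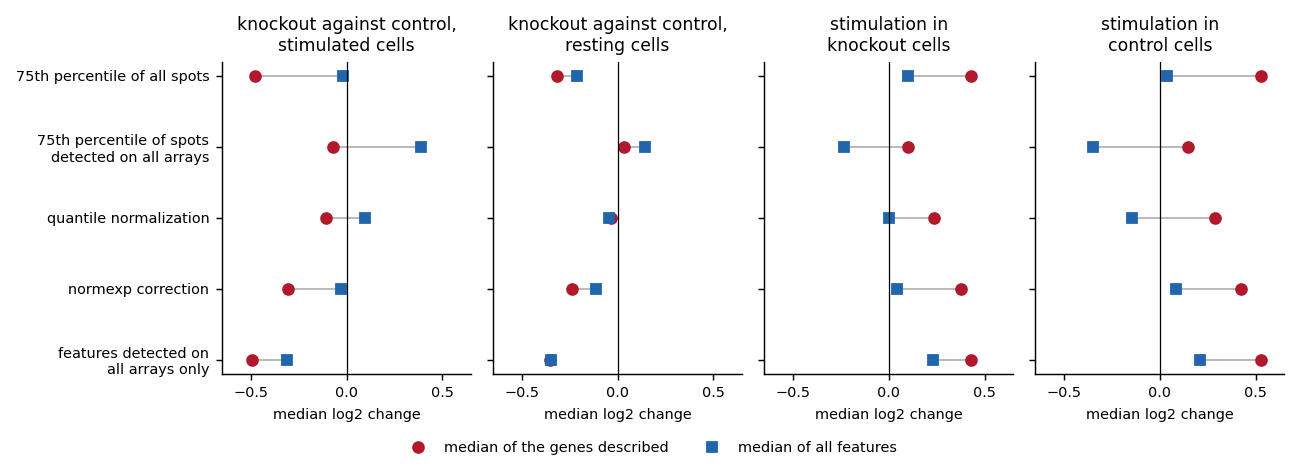
Median log2 change of the genes described (circles) and of all features (squares) under 4 ways of scaling and a stricter filter, for the 4 comparisons, on a horizontal axis with 0 marked. The 2 markers are closest in resting cells, and the genes' median lies below that of all features for the knockout comparison in stimulated cells and above it for stimulation in both genotypes.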

How the data were processed

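RNA of splenic B cells was amplified, labelled with Cy3 and hybridised to 12 one-colour Agilent mouse arrays per the labels, 3 per group on 2 slides. The values are background-subtracted processed intensities that the authors produced with Agilent Feature Extraction 10.7.3.1 per the file headers, while the submitters' processing notes name version 9.1. The series matrix holds the same deposited intensities, rounded, with a largest difference of 0.497%. Each array held 62,976 spots, 3671 of them controls.

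Outlier spots were left out. Log2 intensities had the 75th percentile of their array's remaining non-control spots subtracted, and repeated spots of a probe were averaged. A probe was kept when some group had it well above background on each of its 3 arrays. Transcript accessions of the array annotation named 26,413 of 55,681 probes through RefSeq genes (GRCm38.p6), and the brightest probe stood for a gene. Unnamed probes stayed as 10,686 of the 22,981 features. limma 3.58.1 in R 4.3.3 (lmFit and eBayes, 4 group means, 8 residual and 2.55 prior degrees of freedom) gave changes, standard errors and 95% intervals, with Benjamini-Hochberg adjustment over all features of a comparison and a threshold of 0.05. The steps were tested on simulated data.

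The members, lists and comparisons were chosen with earlier results of these data known. Full values are given for Myc and for called genes, at most 6 in each direction, or for the 3 with the smallest p, with genes near the threshold in stimulated cells. Deviations of same-numbered arrays from group means correlated at 0.352, 0.329 and 0.483 for the knockout comparison in stimulated cells. For stimulation in control cells they correlated at 0.417, 0.428 and 0.506. No label pairs same-numbered samples, and slide 2 held replicate 3 of every group. A pairing and a shared slide or signal strength therefore cannot be told apart. Fits with the replicate number as a block were also made. Correlations for the other 2 comparisons were not above 0.1 in every pair. Alternatives changed the scaling, background correction, input, filter, probe, blocks, variance model, samples fitted, and arrays left out.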

Additional observations from a re-analysis of the deposited data

How the results depend on the processing

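The number of members past the threshold depended on the settings more than the direction of their median did. The low number of arrays limits all values. Each setting below changes 1 choice, and the cause of a changed value was not tested. Percentages are shares of all features called.

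Quantile normalization gave 0 members lower in stimulated knockout cells and medians of -0.11 (knockout, stimulated), -0.035 (knockout, resting), 0.24 (stimulation, knockout cells) and 0.29 (stimulation, control cells). It gave 1 member lower on stimulation of knockout cells and 2 in control cells, with 0.148% called for the resting knockout and 0.352% for the interaction. The percentile over spots detected on all arrays gave 1 member higher in stimulated knockout cells and medians of -0.073, 0.035, 0.098 and 0.15 in the same comparisons. It gave 1 member lower on stimulation of knockout cells and 3 in control cells, with 10.2% called for the stimulated knockout, 0.222% for the resting knockout and 1.38% for the interaction. Myc on stimulation of control cells became -0.18 there. With normexp correction (offset 50) 0 members were lower in stimulated knockout cells, and 0.392% were called for the resting knockout and 0.535% for the interaction.

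With no filter on dim probes, 0 members were lower in stimulated knockout cells, 1 rose on stimulation of knockout cells and 10 of control cells, and 0 fell in control cells. Then 0.114% were called for the stimulated knockout, 0% for the resting knockout, 3.26% and 7.88% for stimulation of knockout and control cells, and 0% for the interaction. Features detected on all arrays alone gave 7 members lower in stimulated knockout cells and 1 lower on stimulation of knockout cells, with 14.6% called for the stimulated knockout, 0.584% for the resting knockout, 36.7% and 49.1% for stimulation of knockout and control cells, and 2.59% for the interaction. The mean of a gene's probes gave 0 members lower in stimulated knockout cells, 0 lower on stimulation of control cells and 0.0087% called for the resting knockout.

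The replicate block gave 2 members lower in stimulated knockout cells, with 8.12% called there and 0.178% for the resting knockout. Under the replicate block Gnl3 also rose on stimulation of knockout cells (limma adjusted p = 0.0151), where deviations of the replicate 1 arrays correlated at 0.004. Apart from Gnl3 and Fbl the block changed no member's call. The slide as a block gave 2 members lower, with 5.7% called for the stimulated knockout, 0.0522% for the resting knockout and 0.352% for the interaction. eBayes with trend and robust settings gave 6 members lower, with 6.68%, 0.466% and 1.46% called in these 3 comparisons. A fit on the 2 groups alone gave 0 members lower and 0% called in either knockout comparison.

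Leaving out 1 array at a time, members lower in stimulated knockout cells numbered 0 to 2, and their median ran between -0.57 and -0.28. Members higher on stimulation numbered 4 to 12 in knockout cells and 12 to 18 in control cells, with a control median of 0.32 to 0.66. The interaction median ran between -0.26 and 0.0635, and Myc on stimulation of control cells between -0.10 (without resting control replicate 3) and 0.47. The share called was 0.622% to 6.73% for the stimulated knockout, 0.00435% to 0.0522% for the resting knockout, 10.5% to 18.3% and 20.8% to 27.4% for stimulation of knockout and control cells, and 0% to 0.566% for the interaction. Without both arrays of control replicate 1, 0 members were lower in stimulated knockout cells (median -0.28), 9 rose in control cells (median 0.32), the interaction median was 0.047, and 0.261% were called for the stimulated knockout, 0% for the resting knockout, 16.9% for stimulation of control cells and 0% for the interaction.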
